A study of Drosophila melanogaster with 12 samples.

Results

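The comparison sets brains of flies that expressed a pure CAG repeat of 100 units in neurons (CAG100) against brains of flies that expressed the same reporter without a repeat (CAG0). It uses 8 of the 12 arrays of the series, 4 per genotype, and the other 4, of an interrupted repeat (CAA/G105), are set beside them where they show more. Each array measured messenger RNA from about 20 pooled brains of 3-day-old female Drosophila melanogaster kept at 25 °C, with the eyes, the lamina and the outer medulla taken off. In every genotype the elav-GAL4 driver, which is active in neurons, switched on a UAS transgene that encodes the red fluorescent protein DsRed, and any repeat lay in the 3′ untranslated part of that transcript. CAG100 brains carried 5 copies of the transgene with 100 repeat units, CAA/G105 brains 2 copies, and CAG0 brains 1 copy. The submitters state that copies were chosen so that the reporter's mRNA matched. The labels give no insertion sites. In CAG100 against CAG0 the repeat, the number of transgene copies and any difference in insertion sites or line background cannot be told apart. The labels describe the 4 samples of a genotype as independent, and p-values measure the spread between them.

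Expanded CAG repeats cause several inherited diseases of neurons, most of them through a long glutamine tract in a protein. RNA with a pure CAG run also folds into a hairpin, and the splicing regulator muscleblind binds such hairpins. An untranslated CAG repeat is toxic to fly neurons, whereas CAA interruptions weaken the hairpin. The submitters regard the pure repeat as toxic and the interrupted repeat as harmless, and ask which genes respond to the toxic one.

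Values are deposited log2 signals of probe sets, each a group of probes that reads 1 transcript or gene, and differences are CAG100 minus CAG0 in log2 units with their standard error (SE) from the fit over all 12 arrays. Testing needed a value of log2 4 or more on 4 or more of the 12 arrays. "Called" means an adjusted p under 0.05 in limma's moderated test. Where all 4 arrays of a genotype lay under log2 4, the fold is given as "at least" and was computed against log2 4. Where only some did, those arrays were set to log2 4 for the fold. Signals of different probe sets are not compared as amounts of RNA.

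Over the tested probe sets, arrays correlated at r = 0.98807 to 0.99415 within CAG100, at 0.9898 to 0.99468 within CAG0, and at 0.96989 to 0.97795 between them. The neuronal marker elav read 13.72, 13.65, 13.70 and 13.68 in CAG100 brains, against 13.86, 13.81, 13.67 and 13.75 in CAG0 brains, and was not called (adjusted p = 0.159). Of 9 neuronal markers limma called none in either direction, with 0 higher and 0 lower at an unadjusted p under 0.05. Of their differences 8 were below 0 and 1 above, with a median of -0.08 against -0.03 over all genes. Leaving out CAG0 replicate 3 gave 2 called lower. The summed signal of the 9 markers, as log2 of the sum, was 16.23 to 16.36 in CAG100 arrays and 16.35 to 16.39 in CAG0 arrays. The adipokinetic hormone gene Akh is expressed in the retrocerebral gland, next to the brain. It read 2.25, 11.04, 2.43 and 11.74 in CAG100 brains and 11.76, 13.005, 11.98 and 12.35 in CAG0 brains. The juvenile hormone enzyme gene jhamt, from the same gland complex, read 2.23, 7.95, 2.22 and 8.91 in CAG100 brains and 10.12, 11.48, 10.82 and 10.33 in CAG0 brains. CAG100 replicates 1 and 3 were thus the arrays of this comparison without signal of either gene. Neither gene was called (adjusted p = 0.172 for Akh and 0.0989 for jhamt). Among the arrays left out here, 1 CAA/G105 array also lacked Akh.

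In all, 1639 of 8966 tested probe sets were called, or 18.3%. Of these, 705 were higher in CAG100 (7.86%) and 934 were lower (10.4%). CAG100 and CAG0 arrays did not overlap for 1405 of the called probe sets (15.7% of those tested). Leaving out CAG100 replicate 2 lowered the number called lower to 580, leaving out CAG0 replicate 4 lowered it to 609, and without the 3 arrays that lacked Akh it was 510, with 438 higher. After a shift of all arrays to 1 median, 877 were higher and 751 lower, so that 53.9% of the called probe sets were higher in place of 43.0%. The median difference of all probe sets was -0.03 as deposited and 0.00 after that shift.

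Most called differences were small. Their median size was 0.42, or 1.34-fold. A change of 1.5-fold or more was reached by 593 of them and 2-fold by 286 (3.19% of those tested). The 2-fold differences comprised 174 increases and 112 decreases, whereas decreases outnumbered increases among smaller differences, as deposited. At 4-fold there were 92 and at 8-fold 42, of which 19 were increases and 23 decreases. The share of probe sets called hardly changed with the signal, at 19.8% below log2 6 and 17.5% at log2 12 and above. Their size did change with it. The median size of a called difference was 1.15 below log2 6, 0.54 between log2 8 and 10, and 0.21 at log2 12 and above, where 4 probe sets reached 2-fold.

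**Figure D1:**
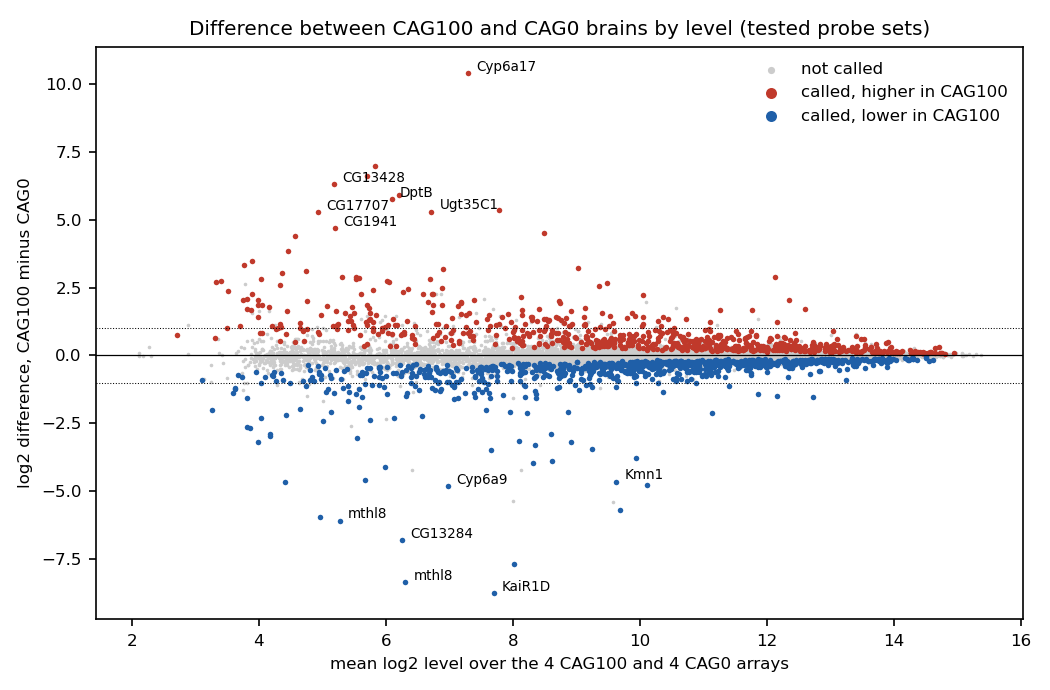
Each point is 1 tested probe set. The x axis is its mean log2 level over the 4 CAG100 and 4 CAG0 arrays, the y axis is the log2 difference CAG100 minus CAG0, colours mark called increases and decreases, and the dotted lines mark 2-fold. Most of the 286 called probe sets past 2-fold lie below log2 10, and the called points narrow towards the line at 0 as the level increases.

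The largest losses include genes that fell below the filter. KaiR1D, a kainate-type glutamate receptor subunit, read 3.33, 3.33, 3.28 and 3.33 in CAG100 brains, against 12.05, 12.07, 12.05 and 12.14 in CAG0 brains (at least 270-fold lower, adjusted p = 2.62e-17). The 4 arrays of each genotype lay close together, and the CAA/G105 mean of 12.06 was at the CAG0 level. CG13284 read 2.25, 3.16, 2.92 and 3.07 in CAG100 brains, against 9.56, 9.80, 9.59 and 9.70 in CAG0 brains, with a CAA/G105 mean of 8.13. CG43117 read 3.36, 3.31, 3.33 and 3.50 in CAG100 brains and 7.62, 7.39, 8.32 and 8.53 in CAG0 brains. Unlike the previous pair, CG43117 also lay under log2 4 on all CAA/G105 arrays. The methuselah-like receptor gene mthl8 had 2 probe sets, and both were lost. The first read 2.13, 2.12, 2.14 and 2.14 in CAG100 brains and 10.32, 11.03, 10.25 and 10.34 in CAG0 brains (at least 89.6-fold lower). The second was at least 19.9-fold lower. Both also lay under log2 4 on all CAA/G105 arrays.

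Of the called probe sets, 18 read under log2 4 on all CAG100 arrays and at least 4 on all CAG0 arrays, and 11 of them name 1 gene. The reverse held for 29, of which 21 name 1 gene. Most lay close to the limit, so that 7 of the 18 and 9 of the 29 had a fold of at least 4. Among the weaker losses were Amnionless, a gene of the endocytic cubilin receptor, which read 3.29 to 3.36 in CAG100 brains and 5.08 to 6.02 in CAG0 brains, and Uros1, a haem synthesis gene, which read 2.79 to 2.95 in CAG100 brains and 4.90 to 5.52 in CAG0 brains. Both were chosen after their values were seen.

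A further set of losses kept measurable signal. Kmn1, a kinetochore gene, read 7.20, 7.23, 7.30 and 7.45 in CAG100 brains, against 11.96, 11.88, 11.96 and 11.99 in CAG0 brains (25.1-fold lower). Its CAA/G105 mean, 7.40, lay within the CAG100 values. NFAT, a transcription factor gene whose protein in mammals is switched on by calcineurin, read 8.05, 7.95, 8.07 and 8.08 in CAG100 brains and 11.37, 11.82, 12.24 and 11.87 in CAG0 brains (13.8-fold lower). Its CAA/G105 mean was 10.89, between both, and the direct difference CAG100 minus CAA/G105 was called (-2.86, adjusted p = 4.0e-08). The odorant receptor gene Or63a fell 9.24-fold, with 6.76 to 7.62 in CAG100 brains and 10.22 to 10.74 in CAG0 brains. Lgr3, which encodes the receptor for the relaxin-like hormone Dilp8, fell 8.98-fold, with 6.60, 6.67, 6.52 and 6.24 in CAG100 brains and 10.01, 9.60, 9.31 and 9.77 in CAG0 brains. All 4 CAG100 arrays were low in Lgr3, with and without Akh signal. Losses of similar size outside the naming rule, chosen after their values were seen, were Roe1, a mitochondrial co-chaperone gene (7.38-fold), CROT, a carnitine acyltransferase gene (4.37-fold), and Pld3, a phospholipase D family gene (4.3-fold). Pld3 was as low in CAA/G105 brains (10.09) as in CAG100 brains, and the other two were not, with CAA/G105 means of 10.03 for Roe1 and 9.39 for CROT.

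The largest gain was the cytochrome P450 gene Cyp6a17, at 12.27, 12.77, 12.49 and 12.45 in CAG100 brains and 2.07, 2.07, 2.10 and 2.09 in CAG0 brains (at least 361-fold, adjusted p = 0.000101). CAA/G105 arrays were scattered between these levels, at 9.61, 6.32, 2.09 and 9.02. This scatter enters the p-value, since the spread is fitted over all 12 arrays. CG13428 read 8.63, 7.89, 8.33 and 8.52 in CAG100 brains and 2.01 to 2.03 in CAG0 brains (at least 20.3-fold). CG17707 read 7.82, 7.51, 7.23 and 7.74 in CAG100 brains and 2.25 to 2.34 in CAG0 brains (at least 11.9-fold). Both were also at the low level in CAA/G105 brains, with means of 2.02 and 2.49. CG1941 read 7.59, 6.98, 7.90 and 7.70 in CAG100 brains and 2.85, 2.85, 2.88 and 2.85 in CAG0 brains. In contrast to the previous genes, CG1941 was also high in CAA/G105 brains (7.91). The gene fzy, whose product activates the ubiquitin ligase that starts anaphase, read 6.39 to 7.19 in CAG100 brains and 2.33 to 2.38 in CAG0 brains.

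Gains with measurable signal in both genotypes had other patterns. The zona pellucida domain gene tyn read 11.02, 10.79, 10.35 and 10.81 in CAG100 brains and 6.32, 6.42, 5.78 and 6.36 in CAG0 brains (22.9-fold). The UDP-glycosyltransferase gene Ugt35C1 read 9.13, 9.37, 9.52 and 9.45 in CAG100 brains and 4.44, 4.04, 4.05 and 3.71 in CAG0 brains (37.7-fold). Ugt35C1 was higher still in CAA/G105 brains, with a mean of 10.08 (CAG100 minus CAA/G105 -0.72, adjusted p = 0.0038). Ekar, a kainate receptor gene on the small chromosome 4 that is enriched in the eye, read 13.53, 13.54, 13.49 and 13.74 in CAG100 brains and 10.90, 10.68, 10.56 and 10.60 in CAG0 brains (7.42-fold). Spn88Eb, a serine protease inhibitor gene, was more scattered, at 7.60, 6.38, 8.87 and 5.05 in CAG100 brains and 4.68, 3.85, 4.51 and 3.32 in CAG0 brains. Reg-2 read 7.35, 8.56, 8.49 and 8.05 in CAG100 brains and 6.79, 3.96, 4.75 and 5.61 in CAG0 brains. The groups of both genes did not overlap, although in each the highest CAG0 array came close to the lowest CAG100 array. These arrays read 4.68 and 5.05 in Spn88Eb and 6.79 and 7.35 in Reg-2. CG44014 rose on both of its probe sets, 6.74-fold on the first, where 2 CAG0 arrays lay under log2 4, and by 1.65 ± 0.31 (SE) on the second. RnrL, the large subunit gene of ribonucleotide reductase, was chosen after its values were seen and rose 6.37-fold, with 6.55 to 6.95 in CAG100 brains and 3.50 to 4.31 in CAG0 brains, where 3 arrays lay under log2 4.

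**Figure D2:**
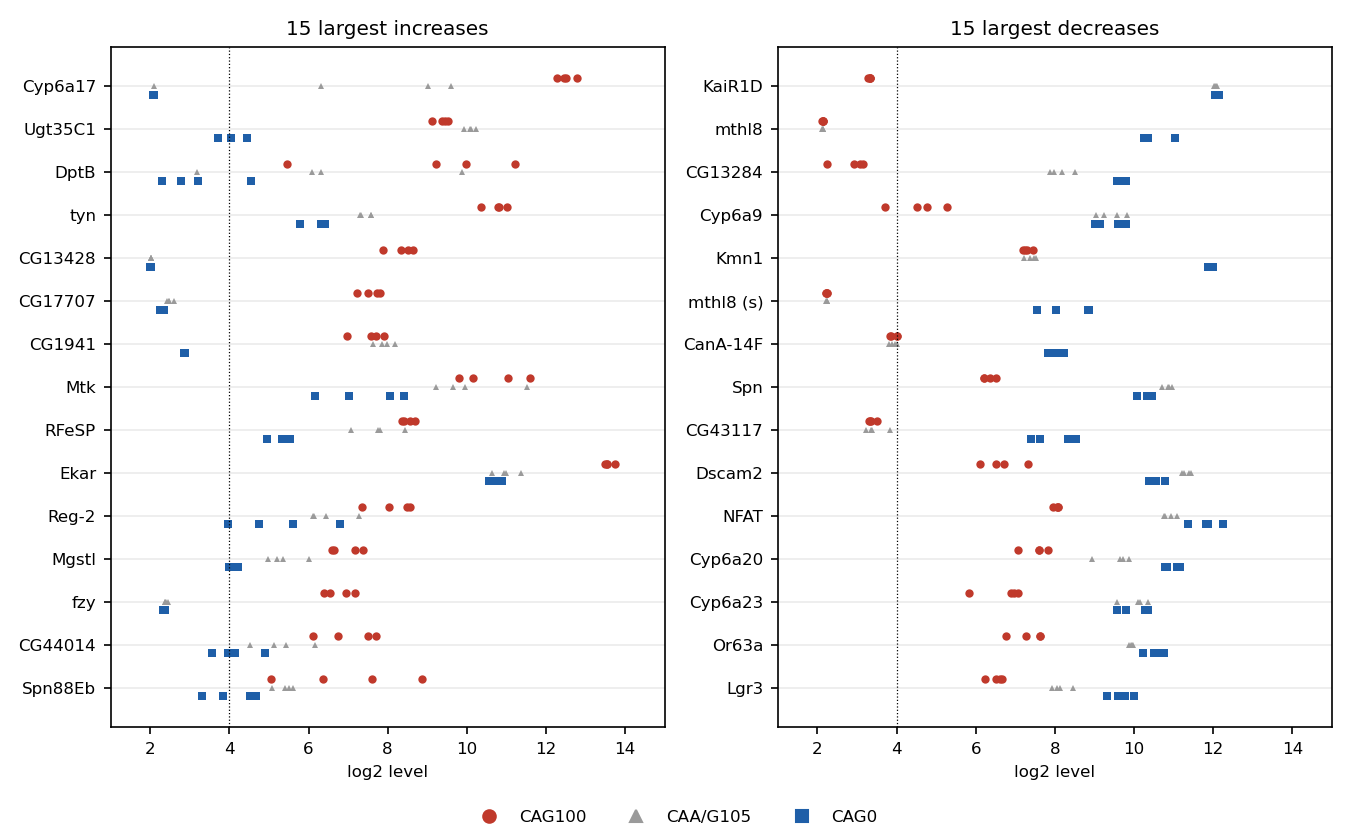
Log2 level on every array for the 15 largest called increases (left) and decreases (right) among probe sets that name 1 gene, ranked with values under log2 4 set to 4 (dotted line). Red circles are CAG100, grey triangles CAA/G105 and blue squares CAG0 arrays, and "(s)" marks the second mthl8 probe set. KaiR1D, Spn and Dscam2 have CAA/G105 arrays at or above CAG0, while Kmn1, CanA-14F and mthl8 have them at the CAG100 level.

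Several of the largest changes were seen by 1 probe set of a gene and not by another. CanA-14F, which encodes a catalytic subunit of the calcium-dependent phosphatase calcineurin, read 4.02, 4.02, 3.83 and 3.87 in CAG100 brains and 7.83 to 8.22 in CAG0 brains on 1 probe set (16.4-fold lower, with 2 CAG100 arrays under log2 4). Its other probe set differed by 0.03 ± 0.13 and was not called. The active zone protein gene Spn, spinophilin, fell 15.7-fold on 1 probe set, with 6.21 to 6.52 in CAG100 brains and 10.08 to 10.46 in CAG0 brains, by 0.43 ± 0.05 on a second, and differed by -0.19 ± 0.06 on the third (adjusted p = 0.0577). Dscam2, a cell surface immunoglobulin gene that helps neurites of like cells avoid each other, fell 14.9-fold, 2.46-fold and 1.18-fold on 3 of its 5 probe sets. Its other two differed by -0.37 ± 0.14 and 0.02 ± 0.12 and were not called. RFeSP, the Rieske iron-sulphur subunit of respiratory complex III, rose 9.21-fold on 1 probe set and differed by 0.10 ± 0.06 on the other. The glutathione transferase-like gene Mgstl rose 7.09-fold on 1 and differed by 0.18 ± 0.09 on the other. In each of these genes the largest change lay on a dimmer probe set. The brightest other probe set had a higher mean log2 signal by 6.75 in CanA-14F, 4.08 in Spn and 3.05 in Dscam2. In RFeSP it was higher by 5.20 and in Mgstl by 7.22.

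Similar splits occurred among genes chosen after their values were seen. The sulphotransferase gene St3 fell 7.72-fold on 1 of 2 probe sets and the neuroligin gene Nlg4 fell 4.74-fold on 1 of 2, with differences of 0.04 ± 0.07 and 0.09 ± 0.09 on the others. These others were the brighter probe sets, by 5.66 in mean log2 signal in St3 and 0.82 in Nlg4. The chromatin insulator gene CTCF read 2.39, 2.38, 2.44 and 2.41 in CAG100 brains and 7.79, 6.76, 4.89 and 2.87 in CAG0 brains on 1 probe set. On a second it read 2.45 to 3.14 in CAG100 brains and 3.81 to 7.27 in CAG0 brains. The CAG0 arrays were thus spread over several log2 units. The remaining CTCF probe set, brighter than the first by 3.92 in mean log2 signal, differed by -0.12 ± 0.08. Without the 3 arrays lacking Akh the difference of the first was -3.18, against -3.17 with them, and was not called (adjusted p = 0.0988). CAA/G105 means of the first and second CTCF probe sets were higher than those of both other genotypes, at 10.04 and 9.62.

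The gene mbl encodes muscleblind, the protein that binds CAG hairpins. Of its 6 probe sets, 5 were not called, with differences between -0.31 and -0.12, and 1 rose 2.3-fold. That probe set read 9.51, 9.44, 9.48 and 9.24 in CAG100 brains and 7.84, 8.08, 8.68 and 8.25 in CAG0 brains. It was as high in CAA/G105 brains (9.31). The brightest mbl probe set exceeded it by 3.29 in mean log2 signal. A further gene with many transcript forms, mod(mdg4), a chromatin gene chosen after its values were seen, had 22 tested probe sets. The largest difference was an increase of 2.35 ± 0.21, 4 others also rose, 12 fell and 5 were not called, with the others between -1.08 and 0.62. That largest increase lay on a probe set dimmer than the gene's brightest by 6.60 in mean log2 signal.

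Among the 168 called genes with more than 1 tested probe set, 45 had another probe set called in the same direction as the largest difference, 14 had one called in the opposite direction, and 111 had no other probe set called. At 2-fold or more there were 28 such genes, 12 with another called the same way, 8 the opposite way and 10 with no other called. Which transcripts the probe sets read was not analysed here, since no probe sequences were used.

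**Figure D3:**
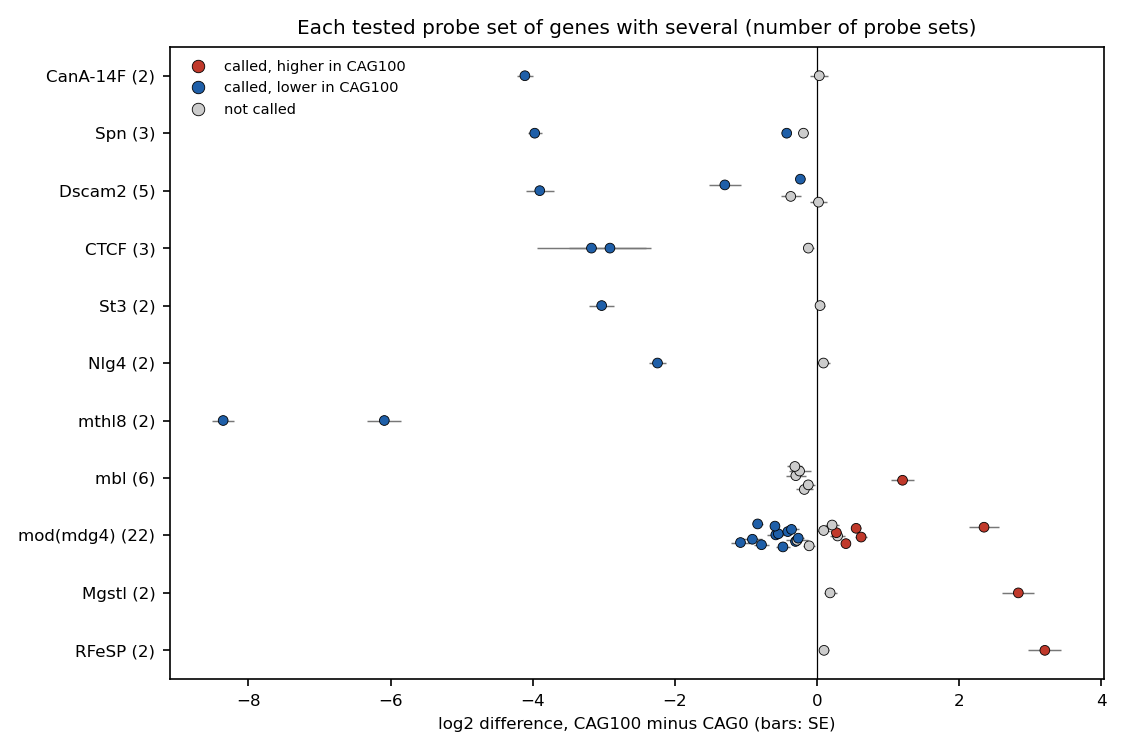
Log2 difference CAG100 minus CAG0 for each tested probe set of 11 genes with more than 1, with the number of probe sets in brackets and bars of ± SE. Coloured points are called increases or decreases and grey points are not called. CanA-14F, Spn, RFeSP and Mgstl have 1 probe set far from 0 and another near it, and the far one is dimmer than the gene's brightest. Both mthl8 probe sets lie far below 0, and mod(mdg4) has called probe sets on both sides.

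Called genes were found on every large chromosome arm. Counting 1 probe set per gene, 1242 genes were called, 531 higher (7.62% of 6969) and 711 lower (10.2%). The share called was lowest on X (14.8%) and highest on 2R (19.9%) among the 5 large arms. On chromosome 4, 18 of 59 genes were called (30.5%). A called increase had another called increase as a neighbour in 22.5% of 529 genes, against 14.4% of all genes, and a called decrease had another as a neighbour in 24.6% of 707, against 19.0%. Neighbours of the opposite direction were also more frequent than over all genes, since 23.1% of the increases lay next to a decrease and 17.4% of the decreases next to an increase. There were 6 runs of at least 3 neighbouring increases and 16 such runs of decreases. The longest run of increases, on 3R, held 5 genes that rose by 0.30 to 0.71, among them Idh3g, a subunit gene of isocitrate dehydrogenase, RpL27 and CLS, the cardiolipin synthase gene. A run on X comprised Kmn1, Reepl1, a receptor-accessory-protein-like gene that read 2.08 to 2.10 in CAG100 brains and 5.91 to 7.31 in CAG0 brains, and CG11699, which fell by 0.75 ± 0.08. Reepl1 also lay under log2 4 on all CAA/G105 arrays, and Kmn1 and CG11699 had CAA/G105 means of 7.40 and 10.44. The 4 neighbours Cyp6a23, Cyp6a19, Cyp6a9 and Cyp6a20 on 2R fell by 0.67 to 4.82. A run of 4 increases on 2R ended with Gbp2, which encodes a growth-blocking peptide and rose by 1.41 ± 0.27. Idh3g, CLS, Reepl1, CG11699 and Gbp2 were chosen after their values were seen.

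Each gene enters the function lists once, through its probe set of highest mean signal. Counts are read against the 7.62% of all genes called higher and the 10.2% called lower, and list medians against the median of -0.03 over all genes. Lists were not tested as wholes. Leaving out 1 array moved counts in both directions. Over all probe sets, 1639 were called with all arrays and 1119 without CAG100 replicate 2. The number was 1800 without CAG100 replicate 1 and 1949 without CAG0 replicate 3. The reason was not tested. Of 33 list counts of 3 or more, 20 moved by over 1.5 times without the 3 arrays lacking Akh. Of 47 list counts of 1 or 2, 32 moved by over 1.5 times when 1 array was left out, so little can be read from these small counts.

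**Figure D4:**
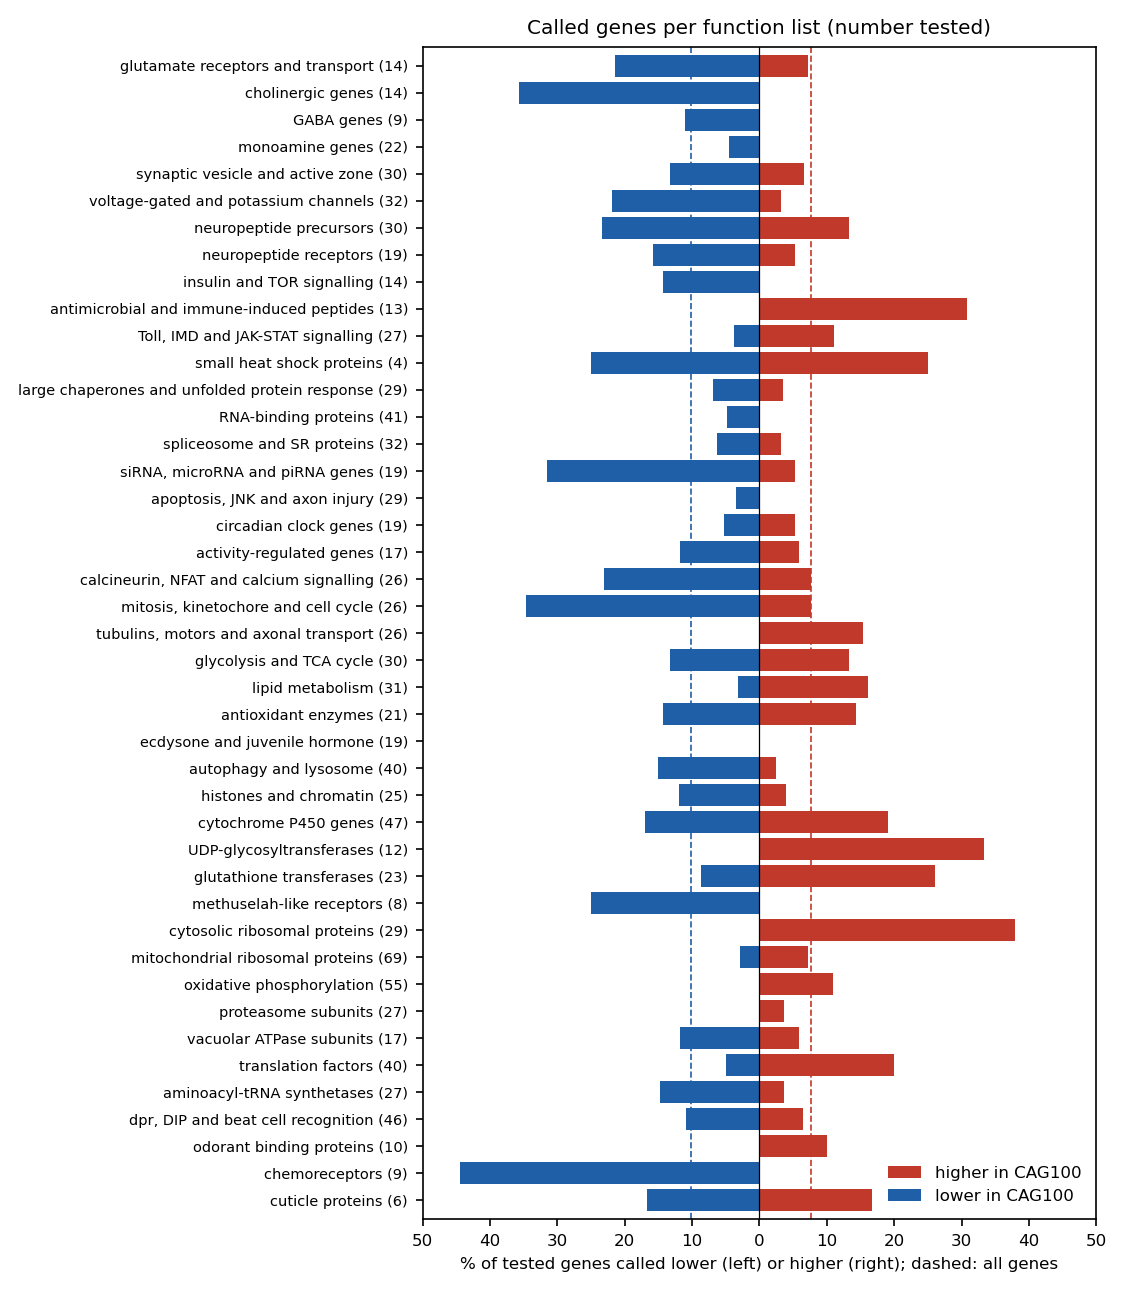
Percentage of the tested genes of each function list that were called lower (blue, left) or higher (red, right) in CAG100 than in CAG0, with the number tested in brackets. The dashed lines mark all genes, 10.2% lower and 7.62% higher. Cytosolic ribosomal proteins, UDP-glycosyltransferases, antimicrobial peptides and glutathione transferases lie furthest past the line for increases, and cholinergic genes, mitosis genes, chemoreceptors and small RNA genes past the line for decreases.

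Genes that modify foreign compounds changed in both directions. Of 47 tested cytochrome P450 genes 9 were higher and 8 lower, or 5 lower without the arrays lacking Akh. Besides Cyp6a17, Cyp9b1 rose 4.84-fold, with 7.90, 7.57, 7.89 and 7.55 in CAG100 brains and 6.39, 5.12, 5.78 and 4.53 in CAG0 brains. Cyp6a9 read 3.71, 4.77, 4.53 and 5.26 in CAG100 brains and 9.13, 9.02, 9.80 and 9.60 in CAG0 brains, with a CAA/G105 mean of 9.42. The CAA/G105 mean of Cyp6a20 was 9.54, between 7.06 to 7.82 in CAG100 brains and 10.78 to 11.16 in CAG0 brains. Of 12 UDP-glycosyltransferase genes, whose enzymes attach sugars to lipophilic compounds, limma called 4 higher and 0 lower (6 and 0 at an unadjusted p under 0.05), with a median of 0.47. They included Ugt302K1, at 4.91 to 6.09 in CAG100 brains and 2.74 to 3.29 in CAG0 brains, and Ugt317A1, which rose 2.5-fold. Of 23 glutathione transferase genes 6 were higher and 2 lower. GstZ1 rose at least 3.7-fold, with 5.64 to 6.07 in CAG100 brains and 2.42 to 3.21 in CAG0 brains, GstE2 rose by 0.61 ± 0.05 and GstD1 fell by 0.49 ± 0.08. Ugt302K1 and GstZ1 were also above log2 4 on average in CAA/G105 brains, at 6.77 and 6.03. The metallothionein gene MtnA, among the probe sets with the highest signal, read 14.76 to 14.81 in CAG100 brains and 14.49 to 14.51 in CAG0 brains (adjusted p = 2.66e-06).

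Of 13 tested antimicrobial and immune-induced peptide genes limma called 4 higher and 0 lower (7 and 0 at an unadjusted p under 0.05), and a further 13 lay below the filter. All 13 tested had a difference above 0, with a median of 1.17 and wide scatter between arrays. Mtk, which encodes the antimicrobial peptide metchnikowin, read 9.79, 11.04, 11.60 and 10.16 in CAG100 brains and 6.17, 8.05, 8.40 and 7.03 in CAG0 brains. DptB, a diptericin gene, read 5.47, 11.22, 9.99 and 9.23 in CAG100 brains and 2.29, 3.21, 4.54 and 2.79 in CAG0 brains (28.6-fold, adjusted p = 0.0114), where 3 arrays lay under log2 4. In both genes the lowest CAG100 array lay above the highest CAG0 array, by under 1 log2 unit in DptB. Their CAA/G105 means lay between, at 10.09 for Mtk and 6.36 for DptB, and the difference CAG100 minus CAA/G105 was not called for either (adjusted p = 0.52 and 0.19).

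Bomanins are short peptides released under Toll signalling. BomS2 read 12.58, 12.91, 12.31 and 12.65 in CAG100 brains and 10.56, 10.77, 11.77 and 10.59 in CAG0 brains (3.23-fold, adjusted p = 0.00374). BomT3 rose by 0.84 ± 0.25 (adjusted p = 0.0351), but its groups overlapped, and its adjusted p was 0.0727 to 0.103 without CAG0 replicate 1, 2 or 4 or without CAG100 replicate 2 or 3. BomS4, chosen after its values were seen, rose 4.84-fold, with 7.20 to 8.78 in CAG100 brains and 5.09 to 6.09 in CAG0 brains. BomT2 (1.29 ± 0.51), BomBc2 (1.17 ± 0.45), BomBc3 (1.71 ± 0.61), BomS5 (1.99-fold) and BomS6 (0.39 ± 0.24) were not called. TotC, a Turandot stress peptide gene, had 9.91, 10.58, 12.73 and 11.10 in CAG100 brains and 7.71 to 11.34 in CAG0 brains, with overlap and no call. The antifungal peptide gene Drs (0.32 ± 0.32), its relative Drsl5 (0.60 ± 0.68) and IM33 (0.41 ± 0.34) were not called. Without the 3 arrays lacking Akh, 3 of the 13 were called higher.

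Of 27 tested genes of Toll, IMD and JAK-STAT signalling 3 were higher and 1 lower, with a median of 0.04. SPE, the protease that activates the Toll ligand Spätzle, read 6.67, 8.96, 7.60 and 7.08 in CAG100 brains and 5.37, 4.86, 4.98 and 5.29 in CAG0 brains (5.46-fold). Rel, the NF-κB factor of the IMD pathway, rose by 0.58 ± 0.14, and missed the threshold without the arrays lacking Akh at a difference of 0.54 (adjusted p = 0.108). The Toll pathway factor dl fell by 0.74 ± 0.10, with 8.05 to 8.38 in CAG100 brains and 8.74 to 9.06 in CAG0 brains, on the brighter of its 2 probe sets, and the other was not called (-0.18 ± 0.13). Summed signals of 14 measured fat body markers were 16.71 to 16.95 in CAG100 arrays and 16.46 to 17.02 in CAG0 arrays, and those of 21 haemocyte markers were 15.83 to 16.09 in CAG100 arrays and 15.76 to 16.17 in CAG0 arrays. In both lists the ranges of the genotypes overlapped, and 1 of 14 and 1 of 21 genes were called higher. Such sums mostly follow the brightest markers and can hide changes in dimmer ones. Of the 14 fat body differences 9 were above 0 and 5 below. Lsp2 read 3.46 to 5.30 in CAG100 brains and 5.89 to 9.92 in CAG0 brains. Cyp4g1 read 2.96, 8.66, 2.86 and 2.73 in CAG100 brains and 11.77, 2.34, 10.36 and 9.60 in CAG0 brains. Neither was called. The part of these tissues in the immune values was not tested.

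**Figure D5:**
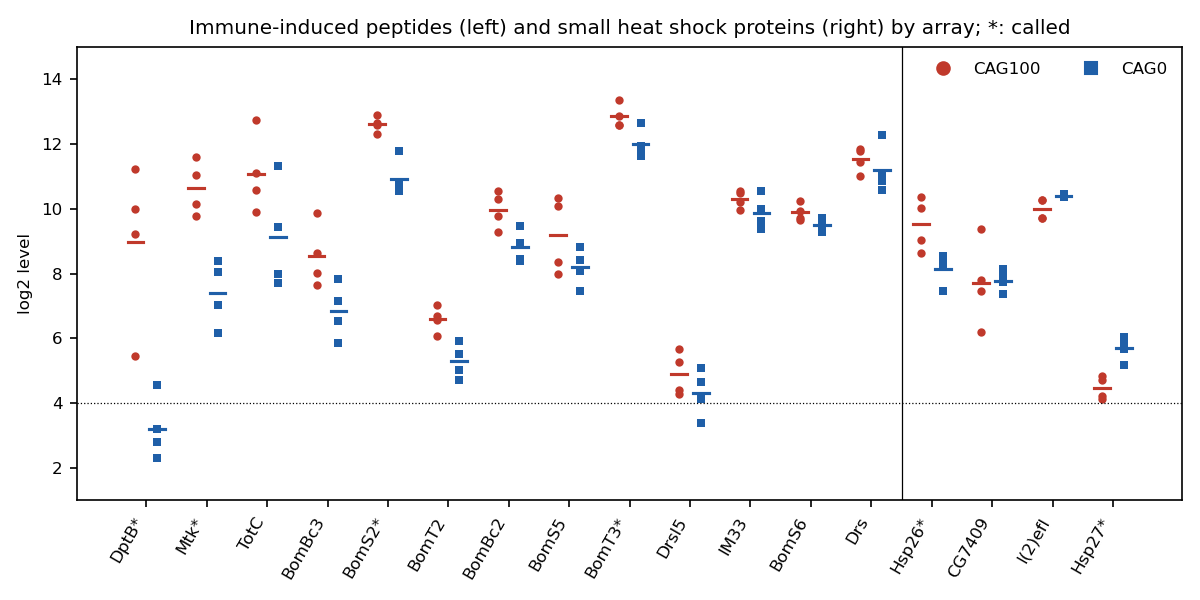
Log2 level on each array for the 13 tested immune-induced peptide genes (left) and the 4 tested small heat shock protein genes (right), with CAG100 as red circles, CAG0 as blue squares and a bar at each group's mean. An asterisk marks a called gene and the dotted line marks log2 4. All 13 immune gene means are higher in CAG100, and Hsp26 and Hsp27 differ in opposite directions.

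Small heat shock proteins bind unfolding proteins. Hsp26 read 8.64, 10.36, 9.04 and 10.03 in CAG100 brains and 7.46, 8.37, 8.26 and 8.53 in CAG0 brains (adjusted p = 0.0247). Its adjusted p was 0.0727 without CAG100 replicate 2, 0.0717 without CAG100 replicate 4 and 0.0651 without CAG0 replicate 1. Hsp27 moved the other way, at 4.21, 4.83, 4.13 and 4.71 in CAG100 brains and 5.18, 5.65, 5.92 and 6.03 in CAG0 brains (2.34-fold lower, adjusted p = 0.0011). The remaining members, l(2)efl (-0.40 ± 0.24) and CG7409 (-0.08 ± 0.63), were not called. The l(2)efl values did not overlap, at 9.70 to 10.29 in CAG100 brains and 10.36 to 10.46 in CAG0 brains, and CG7409 ranged widely in CAG100 brains. Of 29 larger chaperone and unfolded protein response genes 1 was higher and 2 lower, with a median of 0.03. Of 27 proteasome genes 1 was called, Prosbeta4, which rose by 0.45 ± 0.06, and of 40 autophagy and lysosome genes 1 was higher and 6 lower. The autophagy protease gene Atg4a read 11.72 to 11.86 in CAG100 brains and 12.09 to 12.33 in CAG0 brains. The 6 decreases were 3 without CAG100 replicate 2, without CAG100 replicate 4, without CAG0 replicate 2 or without the arrays lacking Akh.

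Among neurotransmitter, synaptic vesicle and ion channel genes, called decreases outnumbered called increases in each list as deposited. After the median shift they did so in all but the synaptic vesicle list. Decreases also outnumbered increases over all genes as deposited, at 10.2% against 7.62%. The GABA and monoamine lists each rest on 1 call, with 11.1% and 4.55% lower. The share lower was 13.3% for synaptic vesicle genes. Of 14 glutamate receptor and transport genes 1 was higher, Ekar, and 3 were lower. Besides KaiR1D these were Grik, another kainate receptor subunit gene, at 5.10 to 5.62 in CAG100 brains and 6.14 to 6.61 in CAG0 brains (2.13-fold lower), and Nmdar1, the obligate subunit of the NMDA receptor, at 12.01 to 12.25 in CAG100 brains and 12.42 to 12.55 in CAG0 brains. The list's median was -0.01 as deposited and 0.02 after the arrays were shifted to 1 median. Of 14 cholinergic genes limma called 5 lower and 0 higher (6 and 0 at an unadjusted p under 0.05), and 13 of 14 differences were below 0, with a median of -0.15. The nicotinic acetylcholine receptor genes nAChRalpha5, nAChRalpha7 and nAChRbeta1 fell by 0.39 ± 0.09, 0.36 ± 0.08 and 0.19 ± 0.04. The vesicular acetylcholine transporter gene VAChT read 14.20 to 14.25 in CAG100 brains and 14.35 to 14.38 in CAG0 brains, and was not called after the median shift (adjusted p = 0.0579). Direct differences CAG100 minus CAA/G105 of nAChRalpha5 and nAChRalpha7 were not called (adjusted p = 0.096 and 0.25), and that of VAChT was (adjusted p = 0.002).

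Of 9 GABA genes limma called 1 lower, the metabotropic receptor gene GABA-B-R3 (-0.28 ± 0.06), and 0 higher (3 and 0 at an unadjusted p under 0.05). Of 22 monoamine genes it called 1 lower, the dopamine transporter gene DAT, and 0 higher (6 and 1 at an unadjusted p under 0.05). DAT read 10.67, 10.55, 10.39 and 10.62 in CAG100 brains and 11.01, 11.04, 11.15 and 11.14 in CAG0 brains, and was also lower than in CAA/G105 brains (-0.47, adjusted p = 0.00025). Of 30 synaptic vesicle and active zone genes 2 were higher and 4 lower, or 2 and 1 after the median shift. No gene of this list was called lower without CAG100 replicate 2 or 3 or without CAG0 replicate 1 or 2, 1 was without CAG100 replicate 4 or CAG0 replicate 4, and 2 were without the arrays lacking Akh. Syt7, a synaptotagmin gene on chromosome 4, rose by 0.45 ± 0.05, with 14.01 to 14.18 in CAG100 brains and 13.54 to 13.75 in CAG0 brains. Of 32 voltage-gated and potassium channel genes 1 was higher and 7 lower, with a median of -0.15, and the number lower was 12 without CAG0 replicate 3 and 3 without the arrays lacking Akh. The potassium channel gene Elk fell 2.06-fold, with 6.77 to 7.32 in CAG100 brains and 7.44 to 8.58 in CAG0 brains, and was not called without the arrays lacking Akh, where its difference was -0.998 against -1.04 with them (adjusted p = 0.0642). The calcium channel subunit gene stj and the sodium leak channel gene unc79 fell by 0.34 ± 0.06 and 0.39 ± 0.06. In bulk brain RNA, fewer cells of a type and less RNA per cell cannot be told apart.

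Neuropeptide genes changed in both directions. Of 30 precursor genes 4 were higher and 7 lower, or 5 and 4 after the median shift, and the number lower was 4 without CAG100 replicate 2, CAG0 replicate 2 or CAG0 replicate 4. Without the arrays lacking Akh 1 was higher and 4 were lower. SIFa, which encodes the peptide SIFamide made by a few neurons, read 10.89 to 11.04 in CAG100 brains and 10.19 to 10.54 in CAG0 brains. Pdf, the clock neuron peptide gene, rose by 0.41 ± 0.08, and was not called without the arrays lacking Akh at a difference of 0.37 (adjusted p = 0.0708). FMRFa, another peptide gene, fell by 0.73 ± 0.13, with 9.35 to 9.92 in CAG100 brains and 10.09 to 10.44 in CAG0 brains. Of 19 peptide receptor genes 1 was higher and 3 lower, or 5 lower without CAG0 replicate 3. AstC-R1, an allatostatin C receptor gene, rose by 0.64 ± 0.09 against CAG0 but was lower than in CAA/G105 brains (-0.98, adjusted p = 1.5e-05). Dh31-R, a diuretic hormone receptor gene, fell by 0.48 ± 0.11 with overlap on its brighter probe set and was not called on the other (-0.06 ± 0.18). The bursicon receptor gene rk, which acts in cuticle hardening, fell by 0.56 ± 0.13, and was not called without the arrays lacking Akh at a difference of -0.50 (adjusted p = 0.0654). Of 14 insulin and TOR genes limma called 2 lower and 0 higher (5 and 0 at an unadjusted p under 0.05), and 0 lower without CAG100 replicate 2 or CAG0 replicate 2 or 4. Of 19 ecdysone and juvenile hormone genes none was called by limma, with 2 lower and 0 higher at an unadjusted p under 0.05. Of 19 clock genes 1 was higher and 1 lower.

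Genes of calcium signalling had 2 of 26 members higher and 6 lower, and the number lower was 3 without CAG100 replicate 2 or 4 or CAG0 replicate 1 or 2. NFAT fell most. RyR, the ryanodine receptor that releases calcium from internal stores, read 11.16, 10.83, 10.80 and 10.73 in CAG100 brains and 11.61, 11.55, 11.21 and 11.53 in CAG0 brains. The protein kinase C gene Pkc53E rose by 0.77 ± 0.06, with 11.51 to 11.73 in CAG100 brains and 10.78 to 10.88 in CAG0 brains. The probe set used for CanA-14F in this list was the brighter one, which was not called.

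Cell division genes were measured although most brain cells at this age do not divide. Of 26 tested genes of mitosis, kinetochore and cell cycle 2 were higher and 9 lower, with a median of -0.16. The number lower was 4 without CAG100 replicate 2, 5 without CAG0 replicate 4 and 5 without the arrays lacking Akh. Mis12, a kinetochore gene like Kmn1, read 5.56, 5.62, 5.65 and 5.72 in CAG100 brains and 6.77, 6.73, 7.12 and 7.52 in CAG0 brains (2.64-fold lower), and its CAA/G105 mean was 5.55. CycE, the G1 to S phase cyclin gene, rose 2.92-fold, with 7.66 to 8.50 in CAG100 brains and 6.15 to 6.93 in CAG0 brains. Of 26 tubulin, motor and axonal transport genes limma called 4 higher and 0 lower (4 and 5 at an unadjusted p under 0.05), and 2 were higher without CAG100 replicate 3 or 4 or CAG0 replicate 1 or 4. Aplip1, a scaffold that links kinesin to its cargo, read 13.69 to 13.77 in CAG100 brains and 13.25 to 13.43 in CAG0 brains. The testis tubulin gene betaTub85D rose 2.84-fold, with 6.20 to 6.86 in CAG100 brains and 4.68 to 5.36 in CAG0 brains.

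Most RNA-binding and splicing genes were not called. Of 41 RNA-binding protein genes limma called 2 lower and 0 higher (5 and 1 at an unadjusted p under 0.05). Hrb27C, an hnRNP gene, fell by 0.20 ± 0.06 and gw, the silencing factor gene on chromosome 4, by 0.16 ± 0.05. Neither was called after the median shift (adjusted p = 0.111 for Hrb27C and 0.0973 for gw) or without CAG100 replicate 2 or 3 or CAG0 replicate 1 (adjusted p = 0.0617 to 0.0892 and 0.0960 to 0.115). Leaving out CAG0 replicate 3 also ended the call of Hrb27C (adjusted p = 0.0631), and leaving out CAG0 replicate 2 or CAG100 replicate 4 that of gw (0.111 and 0.0630). The difference was -0.09 ± 0.04 for Atx2, a translation regulator, -0.04 ± 0.05 for mub, a KH domain gene, -0.05 ± 0.06 for orb2, a regulator of translation at synapses, and 0.07 ± 0.05 for spoon, and none of these was called. The second mub probe set was not called either (-0.26 ± 0.13). Of 32 spliceosome and SR protein genes 1 was higher and 2 lower, with a median of -0.01 that was above 0 after the median shift. Of 19 small RNA pathway genes 1 was higher and 6 lower, and 3 were lower without CAG100 replicate 2, CAG0 replicate 2 or CAG0 replicate 4, and 2 without the arrays lacking Akh. The piRNA gene mael read 7.62, 6.49, 6.79 and 6.87 in CAG100 brains and 8.18, 8.31, 8.21 and 8.54 in CAG0 brains (2.58-fold lower). The microRNA processing gene pasha fell by 0.44 ± 0.10, and was not called without the arrays lacking Akh at a difference of -0.40 (adjusted p = 0.0894).

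Cytosolic ribosomal protein genes had small increases. Of 29 tested genes limma called 11 higher and 0 lower (20 and 0 at an unadjusted p under 0.05), with a median of 0.08. The number was 14 after the median shift, 6 after quantile normalisation, 3 without the arrays lacking Akh, and 7 without CAG100 replicate 2 or 3 or CAG0 replicate 1 or 4. RpL27 rose by 0.49 ± 0.04, with 14.10 to 14.24 in CAG100 brains and 13.63 to 13.71 in CAG0 brains. RpL32, a common reference gene in fly studies, and RpL36A rose by 0.13 ± 0.02 each. The RpL36A arrays lay at 14.64 to 14.65 in CAG100 brains and 14.51 to 14.52 in CAG0 brains. Of 40 translation factor genes 8 were higher and 2 lower, and 5 were higher without CAG100 replicate 2 or 3 or CAG0 replicate 4. Without the arrays lacking Akh 3 translation factor genes were higher and 1 lower. eIF4E5, a gene of the cap-binding protein family, read 5.61, 4.43, 4.65 and 5.46 in CAG100 brains and 2.61 to 3.05 in CAG0 brains (at least 2.05-fold). The initiation factor 3 subunit gene eIF3i rose by 0.35 ± 0.05, and eIF2D, a further initiation factor gene, fell by 0.78 ± 0.17. Of 27 aminoacyl-tRNA synthetase genes 1 was higher and 4 lower. None of them was called lower without CAG100 replicate 2, 1 was without CAG0 replicate 4 or without the arrays lacking Akh, and 2 were without any other single array except CAG0 replicate 3.

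Of 69 mitochondrial ribosomal protein genes 5 were higher (7.25%) and 2 lower (2.9%), shares at or below those of all genes. The number higher was 13 after the median shift, 8 without CAG100 replicate 1 and 3 without the arrays lacking Akh. mRpL54 rose by 0.66 ± 0.11, while mRpS24 fell by 0.86 ± 0.08 and mRpS6 by 0.64 ± 0.08. Of 55 oxidative phosphorylation genes limma called 6 higher and 0 lower (18 and 2 at an unadjusted p under 0.05). The number higher was 18 after the median shift, 12 without CAG100 replicate 1 and 3 without CAG100 replicate 3 or 4. SdhD, a membrane subunit of complex II, read 13.65 to 13.74 in CAG100 brains and 13.32 to 13.45 in CAG0 brains, and the complex I subunit gene ND-B16.6 rose by 0.30 ± 0.04. The brighter RFeSP probe set was the one counted here. Of 17 vacuolar ATPase genes 1 was higher and 2 lower.

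In metabolism, 4 of 30 glycolysis and TCA cycle genes were higher and 4 lower. The number higher was 2 without CAG100 replicate 3 or 4 or CAG0 replicate 2 or 4, and the number lower was 1 without CAG100 replicate 2 and 2 without CAG0 replicate 4. Without the arrays lacking Akh 2 were higher and 1 lower, and the median shift left 2 lower. Hex-C, a hexokinase gene, read 5.12, 5.82, 5.89 and 6.03 in CAG100 brains and 4.94, 3.94, 3.98 and 4.06 in CAG0 brains (2.76-fold). Of 31 lipid metabolism genes 5 were higher and 1 lower. The number higher was 3 without CAG100 replicate 3 or CAG0 replicate 2 and 2 without CAG100 replicate 4 or CAG0 replicate 4, and limma called none in either direction without the arrays lacking Akh. The gluconeogenic enzyme gene fbp, counted in that list, rose by 0.77 ± 0.18, and was not called without those arrays, where its difference was 0.75 (adjusted p = 0.0965). Of 21 antioxidant genes 3 were higher and 3 lower, or 5 and 1 after the median shift. The number higher was 1 without CAG100 replicate 4 or CAG0 replicate 4, and the number lower was 1 without CAG100 replicate 2, without CAG0 replicate 1 or 4, or without the arrays lacking Akh. The immune-regulated catalase gene Irc fell by 0.54 ± 0.08, with 12.63 to 12.97 in CAG100 brains and 13.30 to 13.54 in CAG0 brains, and was lower still in CAA/G105 brains (12.48).

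Of 29 apoptosis, JNK and axon injury genes limma called 1 lower and 0 higher (5 and 1 at an unadjusted p under 0.05), or 4 lower without CAG0 replicate 3 and 2 without CAG100 replicate 1. The called gene was drpr, the glial engulfment receptor gene, which read 12.94 to 13.01 in CAG100 brains and 13.19 to 13.28 in CAG0 brains. Of 17 activity-regulated genes 1 was higher (5.88%) and 2 lower (11.8%), shares close to those of all genes. Of 25 histone and chromatin genes 1 was higher, msl-2 (0.29 ± 0.07), and 3 were lower, among them Sirt2, a deacetylase gene, which fell by 0.44 ± 0.07. The number of chromatin genes lower was 7 without CAG100 replicate 1 or CAG0 replicate 3. Of 46 cell recognition genes of the dpr, DIP and beat families 3 were higher and 5 lower, or 3 and 2 after the median shift. The number lower was 1 without CAG0 replicate 4, 2 without CAG100 replicate 3, 3 without CAG100 replicate 2 or CAG0 replicate 2, and the number higher was 5 without CAG0 replicate 3. Without the arrays lacking Akh 1 was higher and 2 lower. One member, side-VII, rose by 0.48 ± 0.10.

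Among sensory and surface genes, 4 of 9 tested chemoreceptor genes were lower, with a median of -0.39, while 156 others on the array lay below the filter, and 2 of the 9 were lower without the arrays lacking Akh. Besides Or63a, the ionotropic receptor gene Ir76a fell by 0.39 ± 0.08. Of 10 odorant binding protein genes 1 was higher. Of 8 methuselah-like receptor genes 2 were lower, mthl8 and mthl15, which fell 1.59-fold with 3 CAG100 arrays under log2 4. Of 6 cuticle protein genes 1 was higher and 1 lower, TwdlE, which fell by 1.06 ± 0.27 and was not called without the arrays lacking Akh at a difference of -0.73 (adjusted p = 0.0711).

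Other cells that a dissected brain can hold were followed through their marker genes. Summed signals of 21 measured glial markers were 17.45 to 17.54 in CAG100 arrays and 17.45 to 17.54 in CAG0 arrays, with 1 gene higher and 2 lower. The 2 were alrm, an astrocyte gene (-0.19 ± 0.03), and crb, a cell polarity gene (-1.10 ± 0.18). For 16 photoreceptor markers the sums were 16.07 to 16.38 in CAG100 arrays and 16.10 to 16.25 in CAG0 arrays, with 1 gene higher, Ekar, and 3 lower. One of the decreases was inaE, a diacylglycerol lipase gene of the light response, which fell by 0.47 ± 0.09 on its brightest probe set, by 0.58 ± 0.11 and 0.79 ± 0.15 on others, and was not called on the remaining pair. Without CAG100 replicate 2 or 3, CAG0 replicate 3 or 4, or the arrays lacking Akh, 1 photoreceptor marker was lower.

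Muscle markers summed to 12.32 to 13.27 in CAG100 arrays and 12.77 to 13.44 in CAG0 arrays. Of the 16 tested none was called by limma, with 0 higher and 1 lower at an unadjusted p under 0.05. Their median difference was -0.56, but 0.05 without the 3 arrays lacking Akh. For 5 measured retrocerebral gland genes the sums were 11.14 to 12.57 in CAG100 arrays and 13.06 to 13.86 in CAG0 arrays, without overlap. They were Akh, jhamt, Lgr3, AkhR and Kr-h1, which do not all follow the gland. On CAG100 replicates 1 and 3, without Akh signal, AkhR read 8.16 and 8.23 and Kr-h1 read 11.31 and 10.86. The sum is thus not a measure of the gland alone. The median of the 5 genes, -3.17, was the value of Lgr3. Lgr3 was the 1 gene called and was low on CAG100 arrays with and without Akh signal. Without the 3 arrays lacking Akh the median was -0.88, and 2 were called lower. Of 13 ovary markers on the array 8 lay under log2 4 on all 8 arrays. Among the 4 tested, the chorion gene Cp7Fc read 7.04, 5.92, 6.49 and 6.11 in CAG100 brains and 2.29 to 2.78 in CAG0 brains, the vitelline membrane gene Vm32E rose by 1.74 ± 0.30, and mael fell. The summed ovary signal overlapped, at 9.06 to 9.64 in CAG100 arrays and 9.32 to 10.20 in CAG0 arrays. This sum includes osk, which was not tested. It read 5.77 and 8.89 on CAG0 replicates 3 and 4 and under log2 4 on the other arrays of both genotypes. Array means of the 4 tested genes did not overlap, at 6.79 to 7.45 in CAG100 arrays and 5.81 to 6.12 in CAG0 arrays. Of 13 genes listed for male tissue or sex determination, 7 lay under log2 4 on all 8 arrays, among them Acp26Aa, Acp36DE and Mst84Da. The 6 tested were msl-2, Sxl, betaTub85D, tra, fru and dsx, which do not all mark male tissue. Of these 2 were higher, betaTub85D and msl-2, in brains that were all female.

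The direct test of CAG100 against CAA/G105 shares the CAG100 arrays with the comparison above, so its values are set side by side and not counted against it. In CAG100 brains KaiR1D was lower by at least 267-fold against CAA/G105, beside the bound of 270-fold against CAG0. CG13428 was at least 20.3-fold higher and fzy at least 6.8-fold higher than in each of the other genotypes, all of whose arrays lay under log2 4. Ekar was higher by 2.89 ± 0.13 against CAG0 and by 2.59 ± 0.13 against CAA/G105. For tyn the difference was 4.52 ± 0.17 against CAG0 and 3.29 ± 0.17 against CAA/G105. Spn and Dscam2 were also lower than CAA/G105 on their largest probe sets, by 4.53 and 4.66. In other genes CAG100 and CAA/G105 were close, and the direct difference was not called. It was -0.10 for Kmn1 and -0.37 ± 0.18 for CG1941. For mthl8, CG43117 and Reepl1 all arrays of both repeats lay under log2 4, and for CanA-14F 2 CAG100 and 3 CAA/G105 arrays did, so no direct difference is given.

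In genes with smaller differences both patterns occurred as well. Syt7 was higher than in CAA/G105 brains by 0.33 and Aplip1 by 0.38, and both were called (adjusted p = 0.00063 and 5.5e-05). RpL27 differed from CAA/G105 by 0.09 and SdhD by 0.06, and neither was called (adjusted p = 0.077 and 0.28). CG5953, a probe set of very high signal, rose by 0.31 ± 0.04 against CAG0 and was lower than in CAA/G105 brains by 0.15, and its dimmer probe set was not called against CAG0 (-0.55 ± 0.23). A direct difference that was not called does not show that the levels were equal.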

How the data were processed

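Per the labels, RNA of 12 brain samples went through the Ovation Pico WTA amplification of NuGEN, was labelled with biotin and hybridised to single-colour Affymetrix arrays. The deposited table holds log2 expression, 1 value per probe set and array, made with GCRMA and Partek per the submitters' processing notes, whose versions are not given in the sources used here. No further scaling was applied, and the 4 arrays per genotype limit the precision.

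The table held 18952 probe sets, of which 183 controls were left out and 9803 did not reach log2 4 on 4 arrays. Of the 8966 tested, 7671 name 1 gene (6969 genes), 216 several and 1079 none. Symbols came from the array's annotation, and 7651 of the 7671 matched the RefSeq genes of assembly Release 6 plus ISO1 MT, used for names, arms and the order of genes. The array's own build was not given, so no coordinates are printed. For lists and shares per arm, each gene was represented by its probe set of highest mean.

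One linear model with 3 genotype means over 12 arrays was fitted in R 4.3.3 (limma 3.58.1, empirical Bayes variances with an intensity trend), and p-values were adjusted by the Benjamini-Hochberg method over all tested probe sets. The fold of a group under log2 4 on all arrays is a bound, and other arrays under log2 4 were set to it for folds. On simulated data for this comparison, 5 runs that each changed 200 of 8966 probe sets, the fit recovered 69.9% of changes of log2 0.5, 91.6% of those of log2 1 and 97.9% of those of log2 2. False calls were 4.32% of all calls. The simulated noise was independent between probe sets, and fewer probe sets were changed than were called in the data. Differences that many probe sets of an array share were not simulated, so these rates do not give the error of the calls above.

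The genes and gene lists were chosen with earlier results of these data known. The naming rule took 15 increases and 15 decreases, the largest among called single-gene probe sets without overlap, the 10 with the highest signal, up to 5 called members per list (or the 2 with the smallest p), all tested small heat shock and immune peptide genes, and elav, mbl, mub, orb2, spoon, Atx2 and Akh. Examples from it were mostly genes whose call held under the alternatives, chosen after their values were seen. Genes outside it are marked in the text. Samples were not treated as paired by replicate number. Deviations of same-numbered CAG100 and CAG0 arrays correlated at r = -0.160 to 0.042, and those of differently numbered arrays at -0.24 to 0.24. With so few arrays this cannot settle whether samples were handled by number. The 19 alternatives covered the filter, scaling, a replicate block, variance models, array weights, a fit of 8 arrays, the threshold and leaving out arrays.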

Additional observations from a re-analysis of the deposited data

Results flagged for a closer look

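In 272 groups of 4 arrays, 17 held 1 array that stood far from the other 3 by Dixon's criterion, and chance gives about 1 in 20 groups, so the number is close to what chance gives. CAG100 replicate 1 stood apart in Cyp6a23 (5.834), Dh31-R (10.66), GstD1 (12.72) and Prosbeta4 (11.78), below the other CAG100 arrays except in Dh31-R. CAG100 replicate 3 stood apart in KaiR1D (3.277), below the filter of log2 4. Among CAG0 arrays, replicate 1 was high in Hex-C (4.94), Ugt317A1 (8.11) and drpr (13.28) and low in eIF3i (12.67). CAG0 replicate 2 was high in mthl8 (11.03), Roe1 (10.35), ND-B16.6 (13.25) and eIF4E5 (3.046). CAG0 replicate 3 was low in tyn (5.783), inaE (12.29) and eIF2D (8.38), and read 2.879 in CG1941, below the filter. All 17 genes were called in every alternative that tested them, those that leave out the array included. Named examples were mostly chosen among genes whose call held, so little can be read from this.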

How the results depend on the processing

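Of 116 called genes named in the text, 101 were called under all of the 19 alternatives that tested them and 15 were lost under at least 1, 2 of these (DptB and msl-2) only at an adjusted p under 0.01. Named examples were mostly chosen among genes whose call held, so this share does not describe the other called genes. Of 19 genes that were not called, 5 were called under at least 1: BomBc2, BomBc3, BomT2, elav and jhamt. The uncalled difference of CG7409 changed sign, to 0.31 with array weights, 0.64 without the 3 arrays lacking Akh, and ranged from -0.63 to 0.43 when each array was left out in turn. Leaving out each array in turn gave 1119 to 1949 called probe sets, 511 to 775 higher and 580 to 1278 lower, 255 to 304 at 2-fold, and 1084 to 1868 without overlap. With a replicate block 1466 were called, 639 higher and 827 lower, and none of these moved by over 1.5 times. The block did move 13 of 108 list counts by over 1.5 times, among them synaptic vesicle genes lower (1 in place of 4), aminoacyl-tRNA synthetases lower (2 in place of 4), dpr, DIP and beat genes lower (3 in place of 5), cytosolic ribosomal proteins higher (7 in place of 11), Toll, IMD and JAK-STAT genes higher (5 in place of 3) and RNA-binding genes lower (0 in place of 2, with Hrb27C at an adjusted p of 0.0680 and gw at 0.0600). Array weights gave 1462 lower. Without the arrays lacking Akh 948 were called, 438 higher and 510 lower, with fewer arrays. At an adjusted p under 0.01 there were 797, 380 higher and 417 lower, 793 without overlap. With a mean of at least log2 6, 179 reached 2-fold, from fewer probe sets. Of 2160 counts of list members under alternatives, 1679 stayed within 1.5 times of the main count. Signals near background limit low genes, for which folds are bounds.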
